A study of Homo sapiens with 6 samples.

Results

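The histone variants H2A.X, H2A.Z, macroH2A, H2A.J, H3.3, H1.0 and H1.10 are made throughout the cell cycle rather than only in S phase. The 10 genes that encode them (H2AFX, H2AFZ, H2AFV, H2AFY, H2AFY2, H2AFJ, H3F3A, H3F3B, H1F0 and H1FX in the older nomenclature of the deposited tables) were picked by name out of the 57820 genes listed, and 9 of them had enough counts to be tested. RNA-seq was carried out on untreated AID-DIvA cells, an osteosarcoma line derived from U2OS in which the restriction enzyme AsiSI can be induced to cut the genome, and no induction was applied to these samples. The comparison asks how loss of ARID1A, a subunit of the BAF (SWI/SNF) chromatin remodelling complex, changed the expression of these genes, with 3 WT and 3 ARID1A-KO samples, each numbered 3, 4 and 5. ARID1A-KO cells were made by electroporation of Cas9 with crRNAs against ARID1A, and knockout clones were established. The study describes its replicates as independent experiments, but which clone or clones were sequenced is not given in the sources used here. The samples of a genotype may therefore share a clone, and p-values measure only the spread between these samples.

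In dividing cells, most nucleosomes are assembled during DNA replication from histones encoded by clustered genes whose mRNAs end in a stem-loop instead of a poly(A) tail. Histone variants replace these histones outside of replication through dedicated chaperones and remodellers, such as HIRA and DAXX-ATRX for H3.3 and SRCAP and EP400 for H2A.Z. Phosphorylated H2A.X marks chromatin around DNA double-strand breaks, macroH2A carries a large macro domain and is known from silent chromatin such as the inactive X chromosome, and the linker histone H1.0 accumulates in cells that stop dividing.

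ARID1A itself was counted at 166, 178 and 177 CPM (counts scaled to library size) in WT and at 25.1, 27.5 and 25.2 CPM in ARID1A-KO samples, with a log2 fold change of -2.74 (SE 0.07). Libraries held 54512105 to 84088708 counts. Of 9 mesenchymal and osteoblast markers, 6 reached 1 CPM, and COL1A2, IBSP and BGLAP did not. Of the epithelial markers, EPCAM was found at 4.30 to 7.26 CPM and CDH1 at 0.455 to 1.53 CPM, and of the blood markers, PTPRC at 0.162 to 2.47 CPM and CD3E at no more than 0.0150 CPM. CDH5, an endothelial marker, had at most 0.514 CPM and TERT, which U2OS cells lack, at most 0.0341 CPM. The means of several markers were apart, which is given here without a test. The mean of VIM was 2354 CPM in WT and 4224 CPM in ARID1A-KO samples, that of SPARC 757 and 410 CPM, that of ALPL 9.68 and 1.76 CPM, and that of PTPRC 1.95 and 0.445 CPM. The part of these markers in the results was not tested.

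In ARID1A-KO cells, the genes for the linker histone H1.0 and macroH2A2 were higher and those for H2A.Z.1 and macroH2A1 were lower than in WT cells. The remaining tested variants, among them H2A.X and both genes for H3.3, did not pass the test. A gene was called when its p-value in edgeR's quasi-likelihood test, adjusted over all genes by the Benjamini-Hochberg method, was under 0.05. By this rule 4 of the 9 tested variant genes were called, 2 higher and 2 lower, whereas 36.2% of the 19599 genes tested were called, 17.8% higher and 18.4% lower. Their median log2 fold change was 0.078, within a range of -0.28 to 0.77, and the median over all genes tested was 0.0066. Values of WT and ARID1A-KO samples did not overlap for 6 of the 9 genes, against 49.5% of all genes tested. The share of variant genes that differed was thus close to that of the transcriptome. The summed CPM of the variant genes lay between 2507 and 2622 in WT and between 2555 and 2658 in ARID1A-KO samples, and these ranges overlap.

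**Figure D1:**
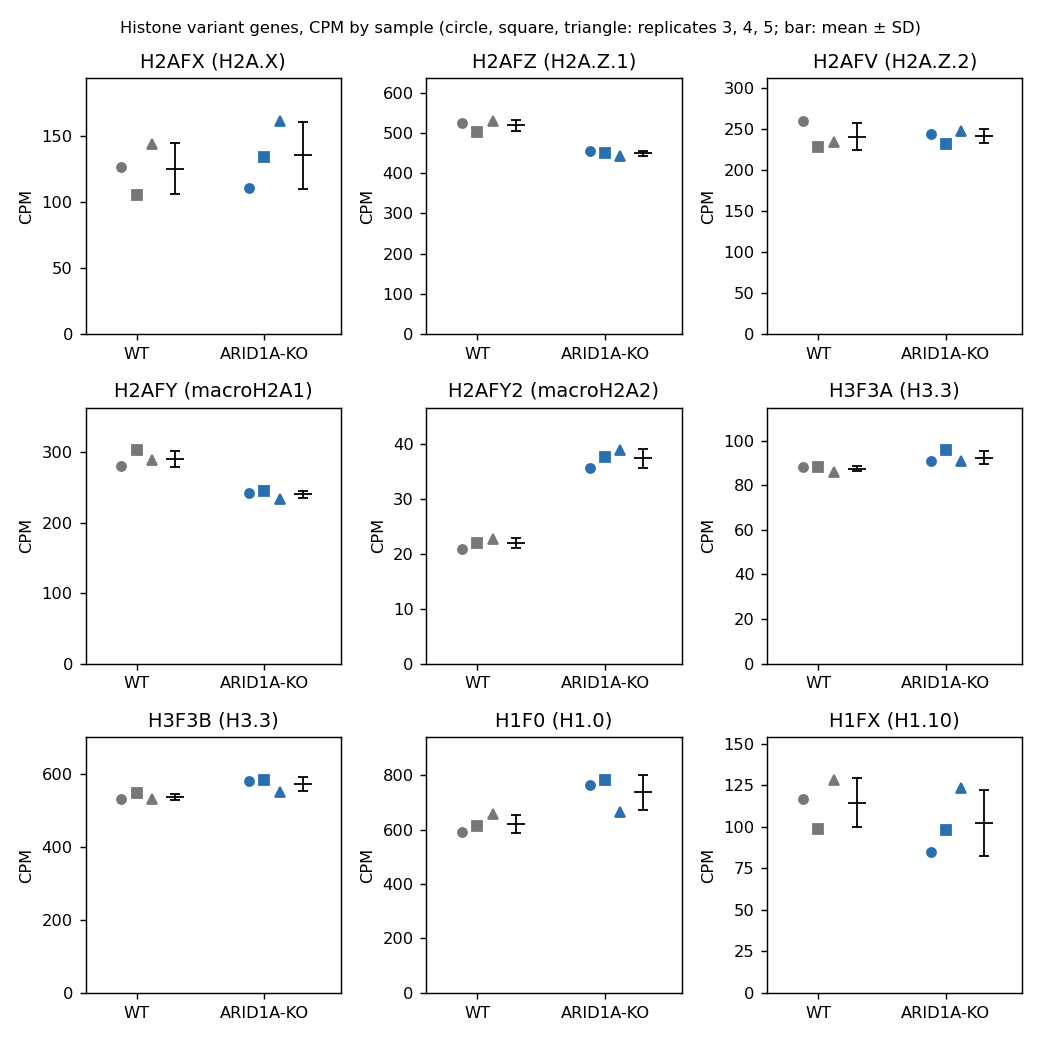
CPM of the 9 tested histone variant genes in each sample (y axes from 0, WT in grey and ARID1A-KO in blue, symbols for replicates 3, 4 and 5, bars for mean ± SD of 3 samples). H2AFY2 is higher and H2AFY and H2AFZ are lower in every ARID1A-KO sample, while the samples of H2AFX, H2AFV and H1FX overlap between the genotypes.

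H2AFX encodes H2A.X, whose mRNA is known to be made in both a stem-loop and a polyadenylated form. It lies on chromosome 11 (ENSG00000188486.3, chr11:118964564-118966177, minus strand, GRCh37) and has 1 exon. The stem-loop of replication-dependent histone mRNAs was written as GG, any 2 bases, CTTT, any 2 bases, AG, any 2 bases and CC. It was searched on the sense strand in up to 100 bases after the stop codon of canonical transcripts of protein-coding genes in GENCODE. Left out were genes missing from the counts and transcripts without a stop codon, without bases after it or with mismatched lengths. The stem-loop was found in 34 of 34 replication-dependent histone genes that could be searched, out of 76 listed. It was also found in 4 of 18726 other protein-coding genes (0.0214%) and in 1 of the 10 variant genes, H2AFX. The transcript ended before 100 bases in 33 of the 34 histone windows and in 926 of the 18726 others. In all, 39 of 18770 windows (0.208%) held it, and 3 held it on the opposite strand. The site of H2AFX lies 50 bases after its stop codon, in the 3′ UTR. It is shown beside that of HIST1H2BK, chosen after its values were seen as the replication-dependent histone gene with the highest mean CPM, with the stem-loop match in capitals.
H2AFX (chr11:118965608-118965623, minus strand): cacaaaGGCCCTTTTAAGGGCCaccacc
HIST1H2BK (chr6:27114145-27114160, minus strand): cccaaaGGCTCTTTTAAGAGCCactta
The labels give the molecule as polyadenylated RNA, while the library kit they name is one for total RNA. The share of H2AFX transcripts with either end that entered the libraries was not tested.

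H2AFX had 126, 105 and 144 CPM in WT and 111, 134 and 161 CPM in ARID1A-KO samples. The samples of both genotypes were interleaved, and replicate 5 was the highest of each. The log2 fold change was 0.11 (SE 0.14) with a 95% interval from -0.21 to 0.44 (edgeR adjusted p = 0.587), so that a change of either sign remains possible at this spread. It ranged from -0.035 to 0.24 when each sample was left out. Among the 9 tested variant genes, H2AFX and H1FX varied most between replicates. The coefficient of variation of H2AFX was 15.6% in WT and 18.7% in ARID1A-KO samples, and that of H1FX 13.1% and 19.3%, while the 7852 tested genes with a mean of 20 to 1000 CPM had medians of 6.06% and 5.30%.

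H2AFX, H1FX and the summed replication-dependent histone genes put the samples of each genotype in the same order. H1FX was set beside H2AFX with its spread known, and it holds no stem-loop match. In WT, replicate 4 was the lowest and replicate 5 the highest for all 3, and in ARID1A-KO, replicate 3 was the lowest and replicate 5 the highest. The summed replication-dependent histone genes had 202, 159 and 226 CPM in WT and 129, 131 and 169 CPM in ARID1A-KO samples. With 3 samples in each genotype this is a description, and the part of the replication-dependent class in the spread of H2AFX was not tested.

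**Figure D2:**
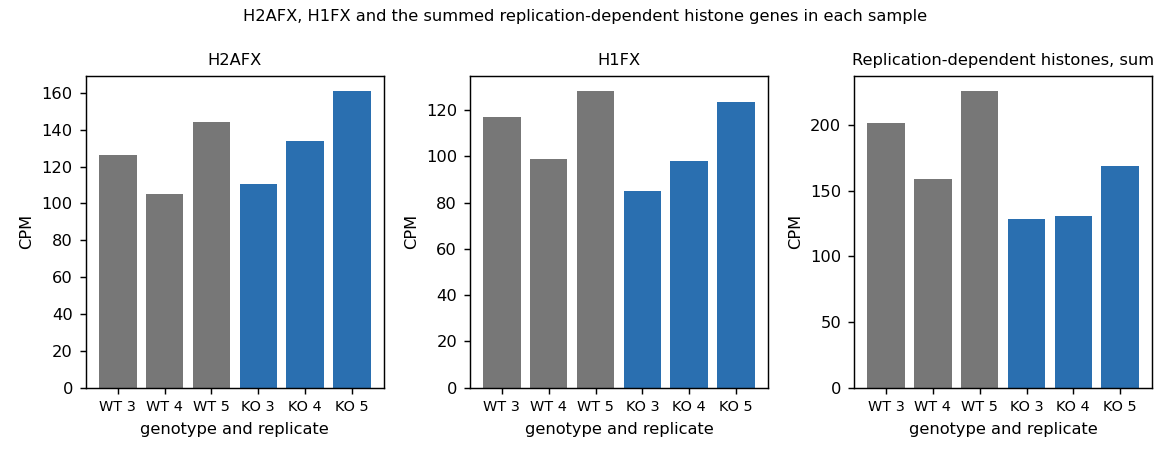
CPM of H2AFX, of H1FX and of the summed replication-dependent histone genes (y axes from 0) in each WT (grey) and ARID1A-KO (blue) sample. Replicate 5 is the highest bar of each genotype in all 3 panels, and only the summed replication-dependent genes reach their 2 highest bars in WT.

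Both macroH2A genes were called, in opposite directions. H2AFY2 (macroH2A2, ENSG00000099284.9, chr10:71812552-71872036, plus strand) had 20.9, 22.0 and 22.7 CPM in WT and 35.5, 37.7 and 38.8 CPM in ARID1A-KO samples. Every ARID1A-KO sample lay above every WT sample. Its mean rose from 21.9 ± 0.91 to 37.4 ± 1.67 CPM (SD, n = 3), a 1.71-fold change with a log2 fold change of 0.77 (SE 0.07, 95% interval 0.61 to 0.93, edgeR adjusted p = 4.84e-05), and this was the largest change among the variant genes. H2AFY (macroH2A1, ENSG00000113648.12, chr5:134669590-134735604, minus strand) had 281, 302 and 288 CPM in WT and 242, 244 and 234 CPM in ARID1A-KO samples. The genotypes did not overlap, and the mean fell from 290 ± 11.0 to 240 ± 5.42 CPM, with a log2 fold change of -0.28 (SE 0.06, interval -0.41 to -0.14, edgeR adjusted p = 0.00559). Both calls were kept when any 1 of the 6 samples was left out, with an adjusted p of at most 0.0267 for H2AFY.

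The medians of the surroundings of both genes had the same sign as the genes. The 97 other genes tested within 5 Mb of H2AFY2 had a median of 0.40 on the log2 scale. Of these neighbours, 58 were higher and 2 lower, and 14 of them were at or above H2AFY2. Over all genes tested, 17.8% were higher and 18.4% lower. AIFM2, an oxidoreductase gene that overlaps H2AFY2 on the opposite strand, rose with a log2 fold change of 0.44 (edgeR adjusted p = 0.00471). Around H2AFY the 98 neighbours had a median of -0.13, with 8 higher and 31 lower. Of the genes that overlap H2AFY on the opposite strand, CTC-349C3.1, counted only 24 to 51 times, had a log2 fold change of -0.69 (edgeR adjusted p = 0.0435), and CTC-203F4.2, counted 28 to 53 times, one of 0.47 (edgeR adjusted p = 0.102). The part of the region in the change of either gene was not tested.

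The ratio within the macroH2A pair had the largest difference between genotypes of the 4 pairs examined. The log2 ratio of H2AFY to H2AFY2 counts within a sample was 3.74, 3.78 and 3.66 in WT and 2.77, 2.69 and 2.59 in ARID1A-KO. These ratios do not depend on library scaling, and the genotypes did not overlap. The mean ratio differed by -1.05 between ARID1A-KO and WT, and stayed between -1.09 and -0.999 with any 1 sample left out. A two-sided exact permutation test of 3 against 3 samples gave p = 0.1, the smallest it can give, and an adjusted p of 0.2 over 4 pairs. Per exonic length, H2AFY made up 59.7% ± 0.997 of the FPKM of the pair in WT and 41.8% ± 1.50 in ARID1A-KO samples (SD, n = 3). This share rests on the exonic length in the tables, which for H2AFY is 17730 bases against 1917 for the canonical transcript.

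H2A.Z is encoded by H2AFZ and H2AFV, whose proteins differ at 3 of 128 residues when the GENCODE coding sequences are translated, while the coding sequences share 80.4% of their bases. H2AFZ (H2A.Z.1, ENSG00000164032.7, chr4:100869243-100871545, minus strand) had 524, 503 and 529 CPM in WT and 455, 449 and 444 CPM in ARID1A-KO samples. The ranges did not overlap, and the mean fell from 519 ± 13.8 to 449 ± 5.47 CPM (SD, n = 3). The log2 fold change was -0.21 (SE 0.06, interval -0.34 to -0.08, edgeR adjusted p = 0.0194), a level lower by a factor of 1.15. This call was lost without WT replicate 3 (adjusted p = 0.0537), WT replicate 5 (0.0579) or ARID1A-KO replicate 4 (0.0866), whereas the direction was kept. The median of its 34 tested neighbours within 5 Mb was -0.18, close to the value of H2AFZ. There, 1 was called higher and 10 lower, beside 17.8% and 18.4% of all genes tested. RP11-15B17.1, which overlaps H2AFZ on the opposite strand, was counted 2 to 12 times.

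H2AFV (H2A.Z.2, ENSG00000105968.14, chr7:44866390-44887682, minus strand) had 259, 228 and 234 CPM in WT and 244, 231 and 247 CPM in ARID1A-KO samples. These values overlapped throughout. Its log2 fold change was 0.0039 (SE 0.07), with an interval from -0.15 to 0.16 (edgeR adjusted p = 0.972). The log2 ratio of H2AFZ to H2AFV counts was 1.11 ± 0.09 in WT and 0.90 ± 0.06 in ARID1A-KO samples, without overlap, and differed by -0.21 (exact permutation test, two-sided p = 0.1, the smallest possible, adjusted p = 0.2 over 4 pairs).

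H3.3 is made from H3F3A (ENSG00000163041.5, chr1:226249552-226259702, plus strand) and H3F3B (ENSG00000132475.4, chr17:73772515-73781974, minus strand). Their coding sequences encode identical proteins of 136 residues, yet 88 of 411 bases differ. How reads of the genes can be told apart is shown by bases 169 to 228 of the coding sequence, counted from 1 at the start codon, where the 17 of 60 bases that differ are in capitals.
H3F3A: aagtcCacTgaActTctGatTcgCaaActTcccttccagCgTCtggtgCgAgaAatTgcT
H3F3B: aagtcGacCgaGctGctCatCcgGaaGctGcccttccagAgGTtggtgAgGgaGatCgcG
The same does not hold for the processed pseudogene H3F3AP4 on chromosome 2 (chr2:175584505-175585526), whose coding part has 0 differences from that of H3F3A over 411 bases. It was counted at 2127 to 3364, which is 40.5% to 46.3% of the counts of H3F3A, so that the level of H3F3A is uncertain. The counts of H3F3AP4 cover 1022 exonic bases, whereas 411 were compared. How many of these counts belong to H3F3A was not tested. All other pseudogenes named after H3F3A, H3F3B and H2AFZ had at most 20 counts in a sample.

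Neither H3.3 gene passed the test. H3F3A had 88.0, 88.4 and 86.1 CPM in WT and 90.7, 95.6 and 90.8 CPM in ARID1A-KO samples. H3F3B had 533, 548 and 533 CPM in WT and 583, 585 and 552 CPM in ARID1A-KO samples. For both genes every ARID1A-KO sample lay above every WT sample, but the distance was small. The log2 fold change was 0.078 for H3F3A (SE 0.06, interval -0.05 to 0.20, edgeR adjusted p = 0.301) and 0.091 for H3F3B (SE 0.06, interval -0.04 to 0.22, edgeR adjusted p = 0.260). UNK, which overlaps H3F3B on the opposite strand, had a log2 fold change of 0.029. MIR4738, on the same strand as H3F3B, had 0 counts, and RP11-396C23.4, opposite H3F3A, had 5 to 15. Adding the pseudogene counts to H3F3A, an alternative chosen after seeing the data, gave 0.053. The log2 ratio of H3F3A to H3F3B was -2.62 ± 0.02 in WT and -2.63 ± 0.04 in ARID1A-KO samples, a difference of -0.013 (exact permutation test, two-sided p = 0.8, adjusted p = 0.8 over 4 pairs).

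H1F0 encodes H1.0 and H1FX encodes H1.10, and their proteins share 31.0% of aligned residues. H1F0 (ENSG00000189060.4, chr22:38201114-38203442, plus strand) had 590, 612 and 655 CPM in WT and 763, 783 and 663 CPM in ARID1A-KO samples. Replicates 3 and 4 of ARID1A-KO stood well above WT, while replicate 5 was just above the highest WT sample. The mean was 619 ± 33.1 CPM in WT and 736 ± 64.0 CPM in ARID1A-KO (SD, n = 3), a 1.19-fold difference with a log2 fold change of 0.25 (SE 0.08, interval 0.07 to 0.43, edgeR adjusted p = 0.0356). The call was lost without WT replicate 3 (adjusted p = 0.139), WT replicate 4 (0.0813), ARID1A-KO replicate 3 (0.102) or ARID1A-KO replicate 4 (0.150). The median of its 150 tested neighbours was 0.034.

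H1FX (ENSG00000184897.4, chr3:129033615-129035120, minus strand) had 117, 98.7 and 128 CPM in WT and 84.9, 98.2 and 124 CPM in ARID1A-KO samples. The genotypes overlapped, and the log2 fold change was -0.16 (SE 0.14, interval -0.47 to 0.15, edgeR adjusted p = 0.387). Leaving out ARID1A-KO replicate 3 gave -0.04 (edgeR adjusted p = 0.835) and leaving out ARID1A-KO replicate 5 gave -0.32 (edgeR adjusted p = 0.0558), the ends of the range over the 6 samples. Its surroundings were lower in ARID1A-KO cells, with a median over 80 tested neighbours of -0.42, of which 47 were lower and 2 higher. The shares over all genes tested were 18.4% lower and 17.8% higher. H1FX-AS1 overlaps H1FX on the opposite strand, and counting without regard to strand left 68.1% of the stranded counts of H1FX. By the same measure, H2AFY kept 84.8% and H2AFZ 89.5%. The log2 ratio of H1F0 to H1FX was 2.44 ± 0.17 in WT and 2.86 ± 0.39 in ARID1A-KO samples, with overlap (exact permutation test, two-sided p = 0.2, adjusted p = 0.267 over 4 pairs). The difference of 0.42 became 0.27 when ARID1A-KO replicate 3 was left out, and 0.64 when replicate 5 of that genotype was.

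**Figure D3:**
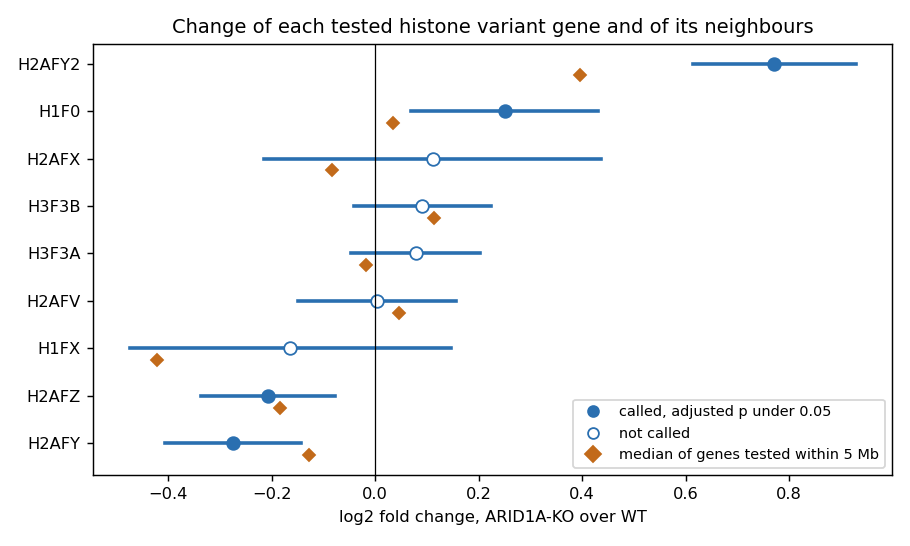
Log2 fold change of each tested histone variant gene with its 95% interval (blue, filled where called) and the median of the other genes tested within 5 Mb (orange diamonds). H2AFY2 lies at 0.77 with neighbours at 0.40, and the neighbours of H1FX lie at -0.42, further from 0 than H1FX.

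**Figure D4:**
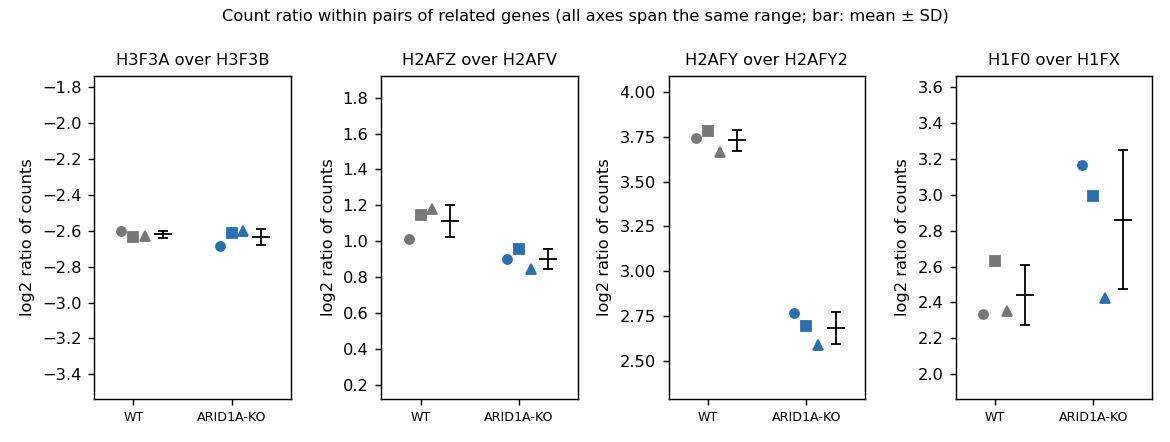
Log2 ratio of counts within 4 pairs of related genes in each sample (WT in grey, ARID1A-KO in blue, bars for mean ± SD of 3 samples, all axes over the same span). The ratio of H2AFY to H2AFY2 differs by -1.05 between the genotypes, and that of H3F3A to H3F3B by -0.013.

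H2AFJ encodes H2A.J, an H2A variant described in senescent cells, and was hardly detected. It lies on chromosome 12 (ENSG00000246705.3, chr12:14927270-14930936, plus strand) and was counted 3, 1 and 1 times in WT and 0, 2 and 0 times in ARID1A-KO samples. A count of 0 allows up to 0.0441 CPM in ARID1A-KO replicate 3 and 0.0341 CPM in replicate 5, taking 3 counts as the limit of counting error. The ratio of ARID1A-KO to WT over the summed counts (2 against 5) was 0.371, with a 95% counting interval from 0.0354 to 2.27, so that no difference was detectable at this depth.

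Levels between the genes can be compared only per length, here as FPKM from the counts, the scaled library sizes and the exonic length in the tables. H1F0 was the highest in both genotypes, at 266 ± 14.2 FPKM in WT and 316 ± 27.5 FPKM in ARID1A-KO samples, followed by H2AFZ at 225 ± 5.97 and 195 ± 2.37 FPKM (SD, n = 3). H3F3B had 87.7 and 93.5, H2AFX 77.6 and 83.8, and H1FX 76.1 and 67.9 FPKM in WT and ARID1A-KO, respectively. Within this middle group, H3F3B overlapped with H2AFX and H2AFX with H1FX in both genotypes, so that the place of H2AFX is not resolved, whereas every sample of H3F3B lay above every sample of H1FX. H2AFV (50.6 and 50.7 FPKM) and H3F3A (27.8 and 29.4 FPKM) came next. H2AFY was above H2AFY2 in WT (16.4 against 11.1 FPKM) and below it in ARID1A-KO (13.5 against 18.9 FPKM). The order depends on the length that is used. With the length of the canonical transcript, an alternative chosen after seeing the data, H2AFZ came first (599 and 519 FPKM), and H2AFY (151 and 125 FPKM) stayed above H2AFY2 (11.3 and 19.3 FPKM) in both genotypes.

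**Figure D5:**
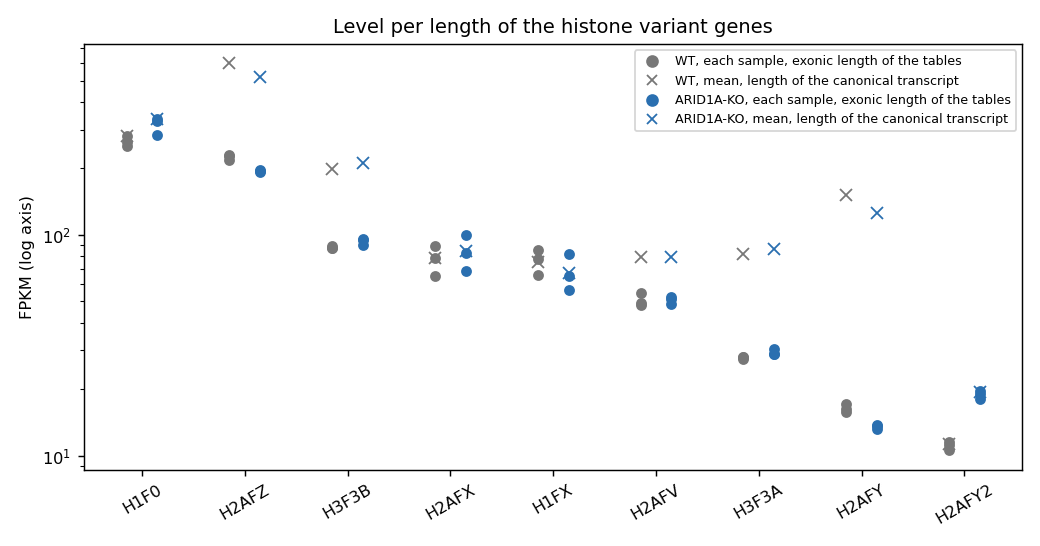
FPKM of 9 histone variant genes on a log axis, with each sample as a point (exonic length of the tables) and the mean with the length of the canonical transcript as a cross (WT in grey, ARID1A-KO in blue). With the exonic length, H2AFY and H2AFY2 change places between the genotypes, and with the canonical length they do not.

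The counts of the following lists stand beside shares of 17.8% higher and 18.4% lower over all genes tested in edgeR. DESeq2 called 6884 of the 19599 genes in either direction. At an unadjusted p under 0.05 in edgeR, 4530 of the 19599 genes were higher and 4472 lower. Of 7 genes for H3.3 deposition, 1 was higher and 1 lower, with a median log2 fold change of 0.0072. ATRX, the remodeller that works with DAXX, fell with a log2 fold change of -0.38 (SE 0.08, edgeR adjusted p = 0.00486). HIRA, the chaperone that deposits H3.3 at active genes, rose by 0.22 (SE 0.07, edgeR adjusted p = 0.0463), and this call was kept only without ARID1A-KO replicate 5 among the 6 fits that leave out a sample, where adjusted p otherwise reached 0.180. Without that replicate, 2 genes of this list were higher. Of 11 genes for H2A.Z deposition and removal, 0 were higher and 1 was lower in edgeR, with a median of 0.029, and the same numbers were found in DESeq2 and at an unadjusted p under 0.05. The lower gene was RUVBL1, an ATPase of the SRCAP and INO80 complexes, with a log2 fold change of -0.37 (SE 0.10, edgeR adjusted p = 0.0203), which lies within 5 Mb of H1FX. This call was lost without WT replicate 5 (adjusted p = 0.0636).

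Of 10 chaperones for replication-coupled assembly and for histones in general, 2 were higher and 2 lower, with a median of -0.020. These shares were close to those over all genes tested (17.8% higher and 18.4% lower). CHAF1A, the large subunit of the CAF-1 complex that deposits H3 and H4 behind the replication fork, fell from 172 ± 3.65 to 108 ± 1.26 CPM (SD, n = 3; log2 fold change -0.67, edgeR adjusted p = 2.64e-05). ASF1B, which hands H3 and H4 to CAF-1, fell by 0.43 on the log2 scale (edgeR adjusted p = 0.00157). NAP1L4, an H2A-H2B chaperone, rose by 0.40 (edgeR adjusted p = 0.00175) and SUPT16H, a subunit of FACT, by 0.31 (edgeR adjusted p = 0.00778). These 4 calls were kept whichever sample was left out.

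Of 11 kinases, phosphatases and readers of H2A.X, 0 were higher and 3 were lower in edgeR and in DESeq2, and 0 and 4 at an unadjusted p under 0.05, with a median of -0.020. Among all genes tested, 17.8% were higher and 18.4% lower in edgeR. At an unadjusted p under 0.05, 4530 of the 19599 genes were higher and 4472 lower, and DESeq2 called 6884 in either direction. Without WT replicate 5, 1 of the 11 genes was higher. EYA3, a phosphatase for the tyrosine of H2A.X, fell by 0.46 (edgeR adjusted p = 0.000549) and RNF168, a ubiquitin ligase acting on H2A, by 0.33 on the log2 scale (edgeR adjusted p = 0.0153). The third gene was ATR, a kinase for H2A.X. The 6 factors for processing or transcription of replication-dependent histone mRNAs had 0 calls in either direction in edgeR and in DESeq2, 1 higher and 0 lower at an unadjusted p under 0.05, and a median of 0.081. Without ARID1A-KO replicate 5, 1 was higher in edgeR. Of 10 other variant genes, CENPA alone was tested, with a log2 fold change of -0.07 (edgeR adjusted p = 0.690).

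Of 13 proliferation markers, 1 was higher, 4 were lower and 8 were not called, with a median of -0.14. Among all genes tested, 17.8% were higher and 18.4% lower. The share of markers called in either direction was close to the 36.2% of all genes. MCM2 fell by 0.47 (edgeR adjusted p = 0.000262) and MCM3 by 0.42 on the log2 scale (edgeR adjusted p = 0.00297), both subunits of the replicative helicase, and MCM2 lies within 5 Mb of H1FX. MCM6 rose by 0.20 (edgeR adjusted p = 0.0373), a call kept only without ARID1A-KO replicate 5 among the fits that leave out a sample, where adjusted p otherwise reached 0.124. As the libraries came from bulk cells, a smaller share of cells in S phase and less RNA in each cell cannot be told apart for the markers that were lower. The part of the cell cycle in the changes of the variant genes was not tested.

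Of the 76 replication-dependent histone genes listed, 30 were tested, 3 were higher and 5 were lower. Among all genes tested, 17.8% were higher and 18.4% lower, so the share of this class that was called was not above that of all genes. The median log2 fold change of the 30 genes was -0.22, against 0.078 for the variant genes and 0.0066 for all genes tested. The number of lower genes was 2 without WT replicate 3 or 5 or ARID1A-KO replicate 3 or 4, and 8 without WT replicate 4 or ARID1A-KO replicate 5. Of the 12 genes with a mean of at least 1 CPM, 1 was higher and 4 were lower, with a median of -0.29. HIST1H2BJ fell from 8.46 ± 1.71 to 4.54 ± 1.24 CPM (log2 fold change -0.89, edgeR adjusted p = 0.00904), and HIST1H4E had a log2 fold change of -0.85 (edgeR adjusted p = 0.0335), a call kept in 2 of the 6 fits that leave out a sample, without WT replicate 4 or ARID1A-KO replicate 5. HIST1H2BK was called lower in all 6 of these fits, with log2 fold changes from -0.93 to -0.63 (edgeR adjusted p at most 0.0309). The 2 called genes with the largest rises were near 0 in WT. HIST1H2BG was counted 0, 1 and 0 times in WT and 23, 14 and 28 times in ARID1A-KO samples, a ratio of 60.3 with a 95% counting interval from 10.5 to 2419. HIST1H2AE was counted 3, 0 and 0 times in WT and 11, 10 and 17 times in ARID1A-KO samples, a ratio of 11.8 with an interval from 3.73 to 59.5. The 1 WT count of HIST1H2BG came from replicate 4 and the 3 of HIST1H2AE from replicate 3. Setting those libraries aside leaves a WT count of 0, for which 3 counts were taken as the limit. The ratio at that limit was 12.8 for HIST1H2BG without WT replicate 4 and 7.75 for HIST1H2AE without WT replicate 3. As the only WT library with counts was left out and ARID1A-KO counting error is not included, neither value is a lower bound. As the molecule is labelled as polyadenylated RNA and these mRNAs usually lack a poly(A) tail, the share of them that entered the libraries was not tested. Genes of this class are near-identical copies, so that reads may be split between them.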

How the data were processed

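Paired-end RNA-seq of 3 WT and 3 ARID1A-KO samples was analysed, grouped by the genotype in the labels. Per the methods of the study, STAR was used for alignment (GRCh37) and featureCounts for counting, both run through Roddy. The deposited counts are whole numbers without normalization, given as unstranded, forward and reverse columns. The authors also deposited FPKM and TPM values made from these counts, used only as alternatives for the levels. Forward counts were 5.83% to 6.15% of reverse counts, so the reverse counts were used. Coordinates and gene names are those of the tables.

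Counts were filtered with filterByExpr, scaled by TMM and tested with edgeR 4.0.16 (R 4.3.3) over all 19599 genes left, with no covariate. The common biological coefficient of variation was 0.111. Replicates differed by more than sampling noise (mean chi-square per gene 6.94 to 29.8). On simulated counts for 19293 genes, edgeR recovered 173 of 198 changed genes of the ARID1A-KO against WT comparison with 15 false calls. Every planted change was larger than any change among the variant genes, and far fewer genes were changed than were called in the data. The recovery of changes as small as those of the variant genes was not tested. Ratios used a prior count of 0.5 and exact permutation tests in SciPy 1.17.1 (Python 3.11.15). Intervals are 95% and, for counts, cover counting error only. Coding sequences, stem-loop sites and canonical transcripts came from GENCODE transcript sequences and annotation on GRCh37, in a later release than the study names. Stem-loop sites were found by pattern search, and sequences were aligned with Biopython 1.88.

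The genes named are the 10 variants, ARID1A, overlapping genes, the most counted pseudogene, and of each list up to 2 called genes with the largest rise and up to 2 with the largest fall. ATR, HIST1H2BK and the markers with values were named after their values were seen. The members and lists were chosen with earlier results of these data known. The marker PECAM1 was not matched and is not used here. Tests were repeated with DESeq2 1.42.0, with RLE normalization, on the unstranded column, with other count filters, with a replicate block, at a threshold of 0.01 and without each sample. Levels were repeated with the deposited FPKM and TPM. Pseudogene counts added to H3F3A and the canonical transcript length were alternatives chosen after seeing the data.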

Additional observations from a re-analysis of the deposited data

How the results depend on the processing

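The directions of H2AFY2, H2AFY, H2AFZ and H1F0 were kept in every fit run, and all 4 were called under unstranded counts, RLE normalization, DESeq2, both other filters and the replicate block. With an adjusted p under 0.01, 1 variant gene was higher and 1 lower, beside 22.5% of the 19599 genes tested in either direction. With a sample left out, 1 to 2 variant genes were higher and 1 to 2 lower. The fits without a sample called between 5285 of 20158 genes (without ARID1A-KO replicate 4) and 7050 of 19991 (without ARID1A-KO replicate 5). H2AFX ranged from -0.035 to 0.24 and H2AFV from -0.034 to 0.053 with a sample left out, and H2AFV was -0.00024 with RLE, -0.00022 with DESeq2 and -0.0025 with no filter. The difference in the log2 ratio of H3F3A to H3F3B ranged from -0.027 to 0.012 with a sample left out, with the sign turned without ARID1A-KO replicate 3, and was -0.038 with pseudogene counts added, an alternative chosen after seeing the data.

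Over all genes, 7069 of 19599 were called with RLE, 6884 with DESeq2 and 7477 with the replicate block. With unstranded counts it was 7213 of 21180, with no filter 8223 of 36390 and with the filter of 10 counts 6423 of 17480. Among the lists, the number of higher H3.3 deposition genes was 0 with RLE, DESeq2, no filter, the replicate block or an adjusted p under 0.01. It was 0 to 2 with a sample left out. The number of lower H2A.Z deposition genes was 0 under 0.01 and 0 to 1 with a sample left out. For regulators of H2A.X, 0 to 1 were higher with a sample left out and 1 was lower under 0.01. For histone mRNA factors, 1 was higher with unstranded counts or the replicate block, and 0 to 1 with a sample left out. The number of higher proliferation markers was 0 with no filter or under 0.01, and 0 to 1 with a sample left out. For replication-dependent histones, 5 were higher and 8 lower with no filter, 1 was higher with at least 10 counts in every sample, 2 were lower under 0.01, and 2 to 8 were lower with a sample left out. With the deposited FPKM or TPM no gene took another place in the order of levels. With the canonical length, chosen after seeing the data, 6 genes in WT and 8 in ARID1A-KO did so. The cause of these differences was not tested.

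Not every pair of same-numbered samples deviated together (correlations of deviations -0.22, 0.45 and 0.31 for replicates 3, 4 and 5), so the numbers were not taken as pairs. With the replicate block, 2 variant genes were higher and 2 lower, and 7 replication-dependent histones were lower. This fit called 7477 of the 19599 genes tested in either direction. H1F0 then had an edgeR adjusted p of 0.0492. The exact sign-flip test of the ratio of H2AFY to H2AFY2 over replicate pairs gave p = 0.25, the smallest that 3 pairs allow. With 3 samples a genotype, exact tests cannot go below 0.1.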
